A study of Mus musculus with 6 samples.

Results

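The cytosolic ribosomal protein genes were examined in RNA-seq libraries of bone endothelial cells (BECs) from 3 female and 3 male mice. Members were the protein-coding genes of the GRCm39 annotation with a symbol of Rpl or Rps followed by a number and, for some, a paralogue suffix, together with Rpsa, Rplp0, Rplp1 and Rplp2, and with at least 10 counts over the 6 libraries. 85 genes have such a symbol, 84 of them have a row among the 37991 rows of the count table, and all 84 passed the count minimum. The member without a row was Rpl24, so it was not analysed here. 51 members belong to the large subunit and 33 to the small subunit. All mice were labelled as the c57/Bl6 strain, 12 weeks old and under no treatment that the labels name, and the labels give the cells as fresh from the tibia, whereas the study's method for isolating BECs names tibiae and femurs. BECs were purified through endomucin, a sialoglycoprotein of venous and capillary endothelium, and went straight into lysis buffer. The labels name polyA RNA as the molecule sequenced, whereas the study's methods name a library kit for total RNA. The comparison asks whether BECs of the sexes differ at this age. Whether each library is 1 animal or a pool is not given in the sources used here, so the p-values measure the spread between these libraries.

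Libraries held between 47678806 and 58325745 counts, and gene levels are given as CPM, the counts of a gene scaled to a common library size, after TMM scaling of the libraries. The labelled cell type was checked against 24 endothelial markers. All 24 were detected, but together they took only 0.0487% to 0.0771% of the counts in the female and 0.0329% to 0.0445% in the male libraries. The endothelial cadherin Cdh5 reached 31.2, 15.8 and 32.6 CPM in female replicates 1 to 3 and 12.6, 6.50 and 16.1 CPM in male replicates 1 to 3, and Emcn, the gene of the protein used for purification, 8.68, 5.35 and 10.5 CPM in female replicates 1 to 3 and 4.21, 3.09 and 6.73 CPM in male replicates 1 to 3. The 20 neutrophil markers took 2.21% to 2.41% of the counts in the female and 3.63% to 4.68% in the male libraries, and the 14 erythroid markers 1.35% to 1.76% and 1.85% to 2.89%. The values below are therefore levels in the whole RNA of these libraries. In bulk RNA, fewer cells of a type and less RNA per cell cannot be told apart.

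The cytosolic ribosome is built from ribosomal RNA and about equal molar amounts of each ribosomal protein, and it translates the messages of nuclear genes. The small subunit binds the mRNA and decodes it, and the large subunit joins the amino acids and carries the acidic stalk that recruits translation factors. Messages of ribosomal proteins usually begin with a C followed by a run of pyrimidines, the terminal oligopyrimidine (TOP) motif, through which growth signals reach the translation of all of them together. Haploinsufficiency of several ribosomal protein genes causes Diamond-Blackfan anaemia, a failure of red cell production in the marrow. The mouse genome also holds many processed pseudogenes of these genes, which are intronless copies of their mRNA.

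The start of the message is a feature that the choice of members did not use, and 30-base windows around it are shown first, in 4 members with long pyrimidine runs, in Rps6 and in Rpl3l. Promoter sequences of RefSeq on build GRCm38.p6 were matched by symbol for 63 of the 84 members. Each window opens 10 bases before the annotated start and is written 5′ to 3′ on the strand of the gene, with the longest unbroken run of C and T in capitals.
Rpl35: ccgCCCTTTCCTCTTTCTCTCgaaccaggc
Rpl15: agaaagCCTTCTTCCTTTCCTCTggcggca
Rpl13a: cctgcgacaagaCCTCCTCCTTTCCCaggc
Rps27: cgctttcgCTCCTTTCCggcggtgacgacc
Rps6: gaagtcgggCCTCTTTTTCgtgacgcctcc
Rpl3l: ttctagctctgtcatttgaCCTCTggtgcc

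The run was 18 bases in Rpl35, 17 in Rpl15, 14 in Rpl13a, 10 in Rps6 and 9 in Rps27, and 5 in Rpl3l, a paralogue that muscle and heart express. The windows lie in the 300-base promoter entries chr2:39005082-39005381, chr14:18270937-18271236, chr7:45128696-45128995, chr3:90213599-90213898 and chr4:86857318-86857617, all on the minus strand, and chr17:24727576-24727875 on the plus strand. A run of at least 8 C or T bases was found in this window in 24 of the 63 members (38.1%), against 13.0% of all 27025 genes with a promoter entry. CTTTCC, a string inside several of these runs, was found on the gene strand within 50 bases of the start in 20 members (31.7%) and in 5.43% of all genes. CCGGAAG, a core of the sites that ETS factors such as GABPA bind, was found on either strand of the 300-base window in 26 members (41.3%) and in 9.93% of all genes. ATGGCGG, a core of YY1 sites, was found on either strand in 11 members (17.5%) and in 4.69% of all genes. CTTTCC and the pyrimidine run can overlap. A match is a match of letters only. The median log2 fold change of males over females, described below, was -0.12 in the 24 members with a run and -0.12 in the 39 matched members without one.

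The members took a large part of every library. Of all counts, the members summed to 6.85%, 8.09% and 7.87% in female replicates 1 to 3 and 6.25%, 6.19% and 8.10% in male replicates 1 to 3. Male replicate 3 and female replicate 2 were highest and male replicates 1 and 2 were lowest, so the sexes overlapped. Female libraries had a mean share of 7.60% ± 0.663 (SD, n = 3), and male libraries of 6.85% ± 1.09 (SD, n = 3). The difference of males minus females was -0.752 percentage points and lay within the spread of the libraries (two-sided exact permutation test, p = 0.4; the smallest p that 3 against 3 allows is 0.1). Without male replicate 3 the difference was -1.38 percentage points (exact permutation test, p = 0.2; the smallest p that 2 against 3 allows is 0.1), and both remaining male libraries lay below every female library.

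**Figure D1:**
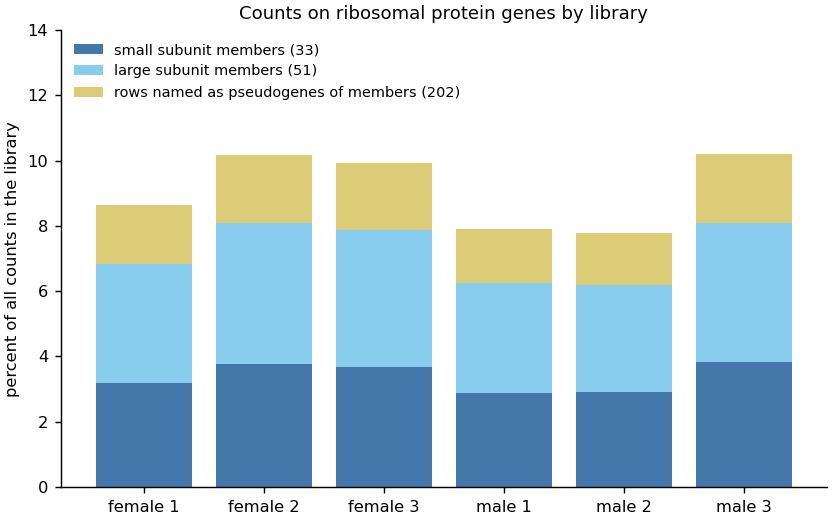
Stacked bars give the percent of all counts in each library on the 33 small subunit members, the 51 large subunit members and, on top of them, the 202 rows named as pseudogenes of members. Male replicate 3, at 8.10% for the members, stands above the other male libraries at 6.25% and 6.19%, within reach of female replicate 2 at 8.09%.

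Both subunits moved with the library. Small subunit members took 3.20%, 3.76% and 3.69% in female replicates 1 to 3 and 2.89%, 2.90% and 3.84% in male replicates 1 to 3, and large subunit members 3.65%, 4.33% and 4.18% in female replicates 1 to 3 and 3.36%, 3.29% and 4.26% in male replicates 1 to 3. The ratio of small to large subunit counts stayed between 0.859 and 0.901 in the 6 libraries, and its highest value was again that of male replicate 3. On the log2 scale the female libraries averaged -0.19 ± 0.012 (SD, n = 3) and the male libraries -0.18 ± 0.035 (SD, n = 3), a difference of 0.0082 (two-sided exact permutation test, p = 0.8). The sign of so small a difference changed when each member had equal weight and when the 5 most abundant members of each subunit were left out.

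Most members were highest in male replicate 3 or female replicate 2 and lowest in male replicate 1 or 2. The summed share had the same extremes, though male replicate 2 was its lowest. In the CPM of the members by themselves, male replicate 3 was the highest male library for 81 of the 84 members, and female replicate 1 the lowest female library for 82. The highest value of all 6 libraries fell in male replicate 3 for 46 members and in female replicate 2 for 35. The lowest fell in male replicate 1 for 56 members and in male replicate 2 for 24. Male replicate 3 lay above the mean of the other male libraries by a median of 0.50 on the log2 scale (range 0.061 to 0.83 over the 84 members). Female replicate 1 lay below the mean of the other female libraries by a median log2 difference of -0.38 (range -0.89 to -0.021).

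**Figure D2:**
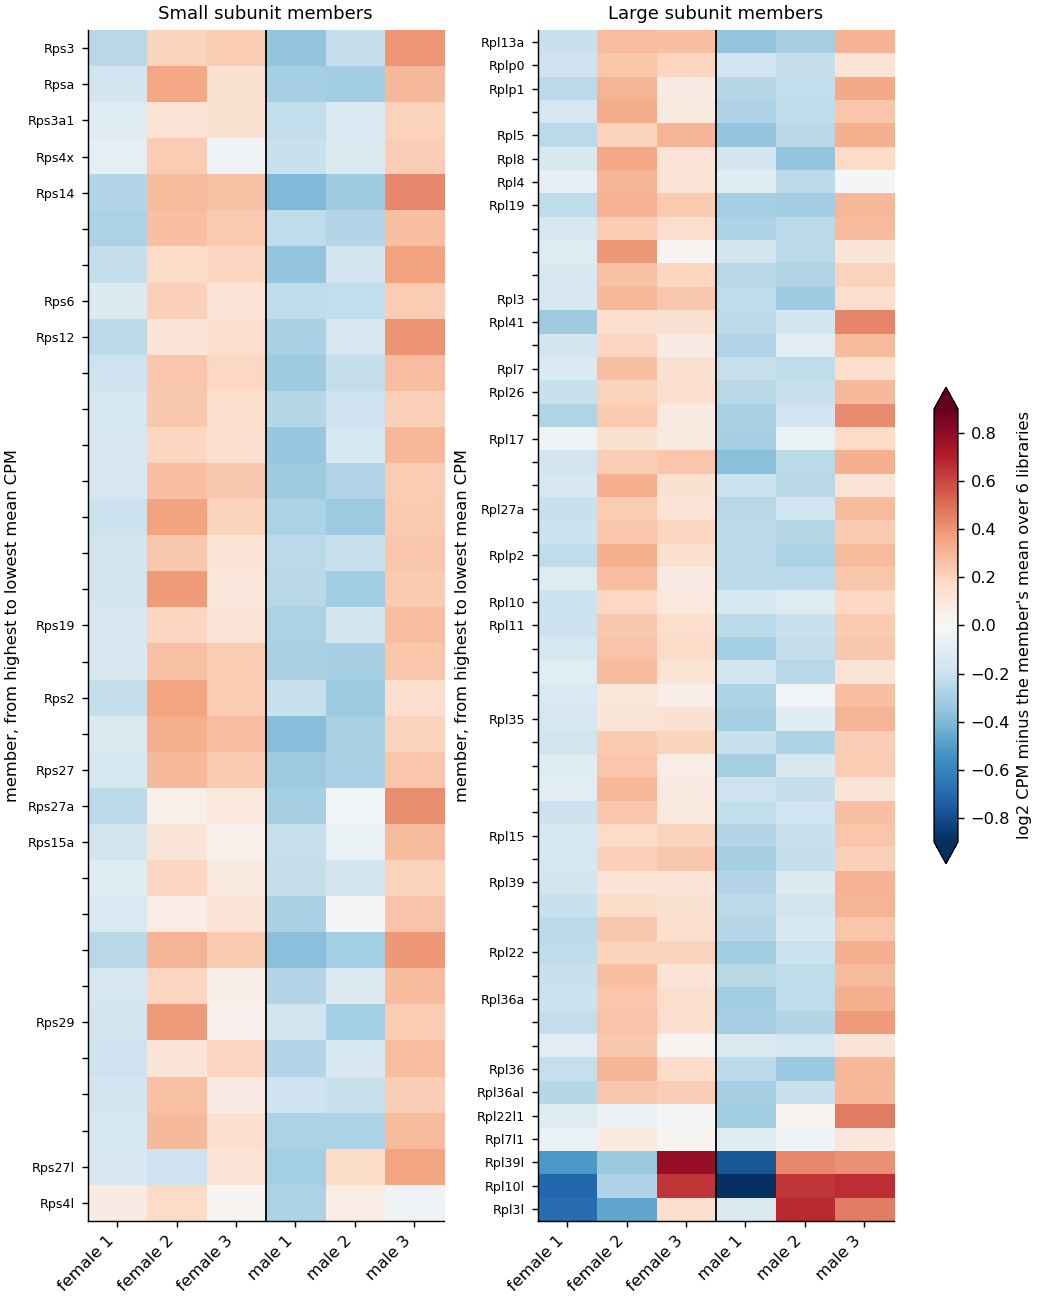
Each cell is the log2 CPM of a member in a library minus the mean of that member over the 6 libraries, with small subunit members on the left, large subunit members on the right, and the highest mean CPM at the top, and members described in the text are named. Columns of 1 colour run through nearly all members in female replicate 2, male replicate 1 and male replicate 3, and the rows that depart are the low paralogues at the bottom.

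Male replicate 3 also stood at an extreme in some other measures of the libraries. The share of counts on protein-coding genes was 87.7%, 86.8% and 86.5% in female replicates 1 to 3 and 88.3%, 87.4% and 85.5% in male replicates 1 to 3. The share on identifiers with no match in the annotation was 3.64%, 3.58% and 3.70% in female replicates 1 to 3 and 3.33%, 3.87% and 4.78% in male replicates 1 to 3. Male replicate 3 was thus the lowest in the first share and the highest in the second, while male replicate 2, low for the members, came next to it in the second. In other shares male replicate 3 lay among the other libraries. Genes of the mitochondrial genome took 7.93%, 10.02% and 10.2% in female replicates 1 to 3 and 7.49%, 10.97% and 8.91% in male replicates 1 to 3, and the most abundant gene took 2.34%, 2.94% and 2.94% in female replicates 1 to 3 and 2.25%, 3.23% and 2.48% in male replicates 1 to 3. Among genes that are no members, 419 protein-coding genes with a transcript under 1000 bases had median log2 deviations from their own means of -0.18, 0.052 and 0.051 in female replicates 1 to 3 and -0.15, -0.024 and 0.26 in male replicates 1 to 3. The members themselves had medians of -0.17, 0.24 and 0.14, and of -0.26, -0.21 and 0.27. Short transcripts were thus low in female replicate 1 and male replicate 1 and high in male replicate 3, as the members were, but near their mean in male replicate 2, where the members were low, and 4293 genes with a transcript over 4000 bases had -0.10 in male replicate 3. The part of these measures in the members' levels was not tested.

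Levels were compared between members per kilobase, over the union of a gene's exons and, since annotated exons of several members include long alternative ends, also over the coding sequence. Over the union of exons the highest members were Rplp1 at 2394 CPM per kb, Rps3a1 at 1543, Rps4x at 985, Rpl13a at 931 and Rps29 at 825. Over the coding sequence Rpl41, whose protein is the shortest of the ribosome, was first at 7716 CPM per kb, followed by Rplp1 at 4109, Rpl13a at 3883, Rps14 at 3689 and Rps27 at 3537. The counts are those of whole genes, untranslated ends included, so the coding length raises members with a short coding sequence. Rpl41 ranked 8th over the union of exons and 6th over the longest transcript, at 762 and 1532 CPM per kb. Only 2 of the 5 highest members were shared between the union and the coding sequence, but 4 of 5 between the union and the longest transcript. The 5 lowest, Rpl3l, Rpl10l, Rpl39l, Rps4l and Rpl7l1, were the same over each of these lengths. 76 of the 84 members had means over 300 CPM, from 322 to 2365 CPM. The other 8 had means from 1.05 to 189 CPM, and all 8 are paralogues of another member.

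With 3 females against 3 males, none of the 84 members passed the threshold of 0.05 for the adjusted p of edgeR, which 8 of the 19480 genes tested or 0.0411% passed. None of the 84 had an unadjusted p under 0.05, against 9.79% of all genes, and DESeq2 also called none. The smallest adjusted p among the members was 0.626. The log2 fold change of males over females was negative for 75 members and positive for 9, where 50.2% of all genes tested were lower in males. Its median was -0.13 over the members and -0.0012 over all genes tested. In none of the 84 did the male and female libraries separate without overlap, which they did in 14.5% of all genes. The median SE of a member's log2 fold change was 0.18.

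**Figure D3:**
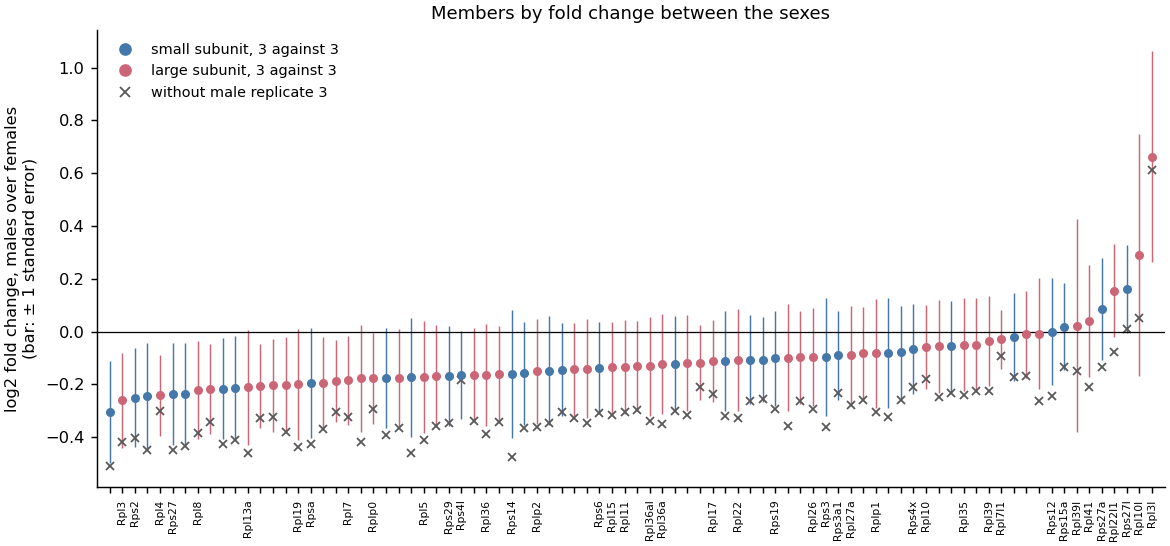
Points give the log2 fold change of males over females of each member with 1 SE to either side, ordered by size and coloured by subunit, and crosses give the value without male replicate 3. 75 members lie below 0 and 9 above it, names are given for members described in the text, and without male replicate 3 the median over the 84 members was -0.32.

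The size of this difference moved most with male replicate 3. Without it the median over the members was -0.32, 81 members were negative, and 52 members were lower in both remaining male libraries than in every female library, which held for 16.7% of the 19925 genes then tested. 20 members had an unadjusted p under 0.05, all with a lower level in males, where 7.78% of all genes did, and still none passed the adjusted threshold, which 96 genes or 0.482% passed. Without female replicate 1, the lowest female library, the median was -0.23, and without any of the other libraries it lay between -0.10 and -0.040. When the libraries were scaled to the members' own summed counts, 40 members were negative and 44 positive, and the median of all genes became 0.15. That scaling sets the members' sum equal in every library, so it brings their signs near an even split by construction. On that scale 15 members did not overlap between the sexes, 7 of them lower in males, and 1643 of the 19480 genes did not overlap.

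The acidic stalk of the large subunit, a base of Rplp0 with dimers of Rplp1 and Rplp2, recruits elongation factors. Rplp0 (ENSMUSG00000067274, chr5:115694515-115701793, plus strand, GRCm39) was at 1450.3, 1957 and 1884 CPM in female replicates 1 to 3 and 1461, 1422 and 1797 CPM in male replicates 1 to 3. Its log2 fold change of males over females was -0.18 ± 0.17 (SE, adjusted p = 0.783). Rplp1 was at 1169, 1713 and 1455 CPM in the female and 1158, 1189 and 1748 CPM in the male libraries, with a log2 fold change of -0.083 ± 0.21 (SE, adjusted p = 0.931). Rplp2 was at 666, 971 and 861 CPM in the female and 660.1, 639 and 951 CPM in the male libraries, with a log2 fold change of -0.15 ± 0.20 (SE, adjusted p = 0.845). All 3 stalk genes had male replicates 1 and 2 near female replicate 1 and male replicate 3 near the upper female libraries.

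Rpsa, the small subunit protein first described as a laminin receptor, was at 1552, 2226 and 1922 CPM in the female and 1423, 1408 and 2144 CPM in the male libraries and differed by -0.20 ± 0.21 (SE, adjusted p = 0.801). Rps6, the small subunit protein that S6 kinases phosphorylate downstream of mTOR (ENSMUSG00000028495, chr4:86748406-86775674, minus strand, GRCm39), was at 1274, 1610.2 and 1509 CPM in female replicates 1 to 3 and 1181, 1191 and 1622 CPM in male replicates 1 to 3, a log2 fold change of -0.14 ± 0.18 (SE, adjusted p = 0.839). Male replicates 1 and 2 were below every female library in both genes, and male replicate 3 was within or just above the female range. Rpl13a, the member with the highest mean count and a protein that can leave the ribosome to silence inflammatory messages in myeloid cells, was at 2014, 2806 and 2792 CPM in the female and 1811, 1885 and 2879 CPM in the male libraries. Its log2 fold change was -0.21 ± 0.22 (SE, adjusted p = 0.795).

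Rpl3l, Rpl4, Rpl3 and Rps2 were among the members with the smallest unadjusted p, and Rpl3, Rps2 and Rpl4 also among those with the most negative log2 fold changes at 5 CPM or more.

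Rpl4, a protein that lines the exit tunnel of the large subunit (ENSMUSG00000032399, chr9:64080618-64086351, plus strand, GRCm39), was at 1123, 1455 and 1285 CPM in the female and 1093, 1001 and 1173 CPM in the male libraries. It differed by -0.24 ± 0.15 (SE, adjusted p = 0.648) and was the abundant member least raised in male replicate 3, by 0.16 on the log2 scale over the other male libraries. Rpl3, which reaches towards the peptidyl transferase centre, was at 952, 1292 and 1241 CPM in the female and 897, 844 and 1169 CPM in the male libraries, a log2 fold change of -0.26 ± 0.18 (SE, adjusted p = 0.683). Rps2, at the entrance of the mRNA channel, was at 773, 1149.8 and 1051 CPM in the female and 781, 721 and 999 CPM in the male libraries and differed by -0.25 ± 0.19 (SE, adjusted p = 0.711). Without male replicate 3 the log2 fold change was -0.42 ± 0.18 (SE, adjusted p = 0.321) for Rpl3 and -0.40 ± 0.19 (SE, adjusted p = 0.361) for Rps2. In each of the 3 genes the ranges of the sexes overlapped.

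Among the 9 members with a positive value, Rpl3l, Rpl10l, Rpl39l, Rpl22l1 and Rps27l are paralogues described below, and Rps27a, Rpl41, Rps15a and Rps12 are canonical members. Rps27a, which is made as a fusion with ubiquitin, was at 740.3, 899.9 and 933 CPM in the female and 708, 857 and 1165 CPM in the male libraries, a log2 fold change of 0.085 ± 0.19 (SE, adjusted p = 0.921). Rpl41 was at 839, 1163 and 1148 CPM in the female and 890.2, 929 and 1419.5 CPM in the male libraries, with 0.040 ± 0.21 (SE, adjusted p = 0.969). In both genes male replicate 3 was the highest of all libraries, and without it the log2 fold changes were -0.14 and -0.21. Rps15a had 0.019 and Rps12 5.5e-05, and without male replicate 3 they had -0.13 and -0.24. Both are named here after their values were seen.

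The members were also compared with the common shift of each library taken out. Each member's log2 CPM was set relative to the mean of the 84 members in the same library, and the SD of that relative level over the 6 libraries had a median of 0.074. It was lowest in Rpl26 at 0.020, Rpl27a at 0.025 and Rps19 at 0.027. It was highest in Rpl10l at 0.64, Rpl3l at 0.54 and Rpl39l at 0.53, followed by Rps27l at 0.24, Rps4l at 0.22 and Rpl22l1 at 0.19, all of them paralogues. Among the 76 members over 300 CPM the largest value was 0.16, in Rpl4. The highest library of such a member exceeded its lowest by 1.30 to 1.77 times. These values describe 6 libraries that share their preparation, and the same SD was not computed for genes outside the members.

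8 members are paralogues of another member and stood apart from it in level. The coding sequences of 5 pairs align over nearly their whole length. Identity was 87.7% for Rpl36a and Rpl36al, 84.7% for Rpl10 and Rpl10l, 80.1% for Rps4x and Rps4l, 77.3% for Rps27 and Rps27l and 74.7% for Rpl3 and Rpl3l. Per kilobase of coding sequence the canonical member was always the higher. Rpl3 had 882 CPM per kb against 0.862 for Rpl3l, and Rpl10 had 1165 against 6.47 for Rpl10l. Rps4x had 2148 against 13.2 for Rps4l, and Rps27 had 3537 against 356 for Rps27l. The pair nearest in level was Rpl36a and Rpl36al, at 1144 and 593 CPM per kb.

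**Figure D4:**
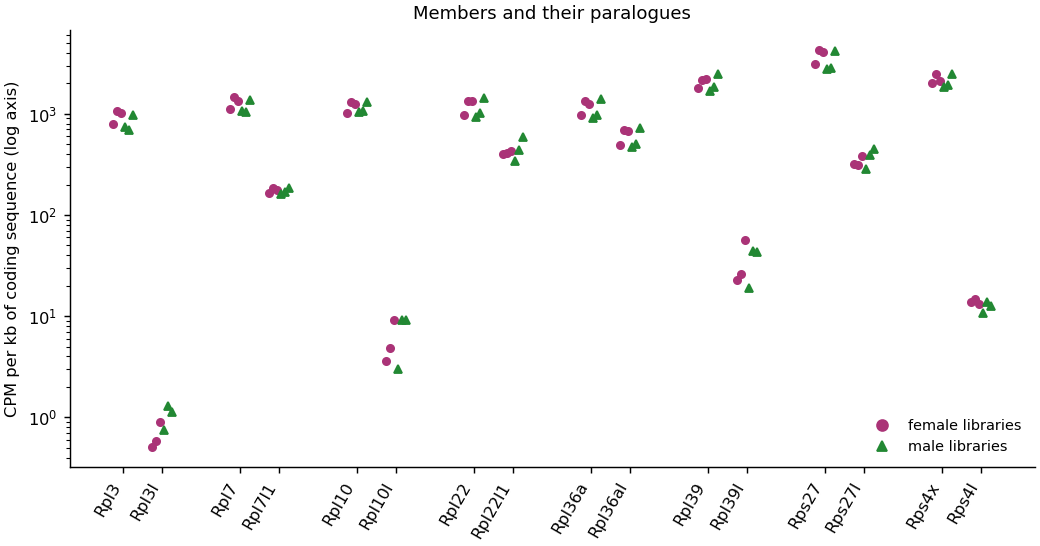
Each point is the CPM per kb of coding sequence of a gene in a library, on a log axis, with circles for female and triangles for male libraries and each canonical member to the left of its paralogue. Rpl3l, Rpl10l, Rpl39l and Rps4l lie far below their partners in all 6 libraries, and Rpl22l1, Rpl36al, Rpl7l1 and Rps27l lie closer.

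Rpl3l (ENSMUSG00000002500, chr17:24946751-24955119, plus strand, GRCm39) was at 0.620, 0.719 and 1.11 CPM in female replicates 1 to 3 and 0.911, 1.58 and 1.37 CPM in male replicates 1 to 3, from 38 to 78 counts a library. It had the largest positive log2 fold change of the members, 0.66 ± 0.40 (SE, adjusted p = 0.626), with male replicate 1 inside the female range. It was also the member with no 31-base stretch of its coding sequence elsewhere in the genome. Rpl10l, which is needed for male meiosis, where the X-linked Rpl10 is silenced, was at 2.29, 3.08 and 5.86 CPM in the female and 1.92, 5.85 and 5.95 CPM in the male libraries, with 0.29 ± 0.46 (SE, adjusted p = 0.876). Rpl39l, the testis-enriched partner of the X-linked Rpl39, was at 3.48, 3.95 and 8.61 CPM in the female and 2.92, 6.72 and 6.62 CPM in the male libraries, a log2 fold change of 0.022 ± 0.40 (SE, adjusted p = 0.992). In both genes female replicate 3 and male replicates 2 and 3 were high and the other 3 libraries low, so the libraries divided across the sexes. Rps4l was at 10.8, 11.6 and 10.4 CPM in the female and 8.47, 10.8 and 9.97 CPM in the male libraries, with -0.17 ± 0.17 (SE, adjusted p = 0.790).

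Rps27l, a target of p53, was at 80.1, 77.9 and 96.3 CPM in the female and 71.8, 99.2 and 113 CPM in the male libraries, with 0.16 ± 0.17 (SE, adjusted p = 0.797). Its partner Rps27 was at 786, 1074 and 1033 CPM in the female and 699, 715 and 1041 CPM in the male libraries, with -0.24 ± 0.19 (SE, adjusted p = 0.740). Rpl22l1, whose splicing and level Rpl22 restrains, was at 144, 149.5 and 154 CPM in the female and 125, 158 and 215 CPM in the male libraries, with 0.15 ± 0.18 (SE, adjusted p = 0.817), and Rpl22 was at 377, 508 and 512 CPM in the female and 356, 388 and 554 CPM in the male libraries, with -0.11 ± 0.19 (SE, adjusted p = 0.892). Female replicates 1 to 3 spanned only 144 to 154 CPM for Rpl22l1, while the male libraries spanned 125 to 215 CPM. Rpl7l1 was at 123, 136 and 130.3 CPM in the female and 119, 125 and 138 CPM in the male libraries, a log2 fold change of -0.030 ± 0.11 (SE, adjusted p = 0.957), and Rpl7 at 903, 1192 and 1086 CPM in the female and 854, 842 and 1102 CPM in the male libraries, with -0.19 ± 0.17 (SE, adjusted p = 0.763). Rpl36al was at 155, 220.1 and 216 CPM in the female and 151, 162 and 228 CPM in the male libraries, with -0.13 ± 0.19 (SE, adjusted p = 0.861), and its partner Rpl36a is given below with the X-linked members. Rpl36, a canonical large subunit member whose symbol resembles theirs but which is no partner of either, was at 274, 391 and 355 CPM in the female and 269.6, 252 and 390.0 CPM in the male libraries, with -0.16 ± 0.19 (SE, adjusted p = 0.822). Whether any paralogue changed otherwise than its partner was not tested.

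4 members lie on the X chromosome. In mice these genes are subject to X inactivation, so that both sexes express them from a lone active chromosome in most cells. Rps4x (ENSMUSG00000031320, chrX:101228542-101233014, minus strand) was at 1588, 1968 and 1646 CPM in the female and 1467, 1535 and 1966 CPM in the male libraries, with -0.066 ± 0.17 (SE, adjusted p = 0.933). Rpl10 (ENSMUSG00000008682, chrX:73314418-73316741, plus strand) was at 649.6, 844 and 795 CPM in the female and 667, 685 and 847 CPM in the male libraries, with -0.059 ± 0.16 (SE, adjusted p = 0.936). Rpl39 (ENSMUSG00000079641, chrX:36345092-36349130, minus strand) was at 424, 517 and 520.0 CPM in the female and 397, 438 and 591 CPM in the male libraries, with -0.035 ± 0.17 (SE, adjusted p = 0.966). Rpl36a (ENSMUSG00000079435, chrX:133486372-133488901, plus strand) was at 313, 425 and 399.7 CPM in the female and 289, 306 and 449 CPM in the male libraries, with -0.12 ± 0.19 (SE, adjusted p = 0.873). All positions are on GRCm39. The 4 log2 fold changes, from -0.12 to -0.035, lay in the range of the other members, and the male and female libraries overlapped in each.

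Of the ribosomal protein genes of Diamond-Blackfan anaemia, 20 were members. 19 had a negative log2 fold change and 1 a positive one, where 50.2% of all genes were lower, none had an unadjusted p under 0.05, against 9.79% of all genes, and the median was -0.11. Rps19, the most often mutated of them, was at 869, 1094 and 1044 CPM in the female and 786, 854 and 1162 CPM in the male libraries, with -0.10 ± 0.18 (SE, adjusted p = 0.890). Rpl5 and Rpl11 carry the small ribosomal RNA of the large subunit and, when free, bind Mdm2. Rpl5 was at 994, 1357 and 1455 CPM in the female and 924, 988 and 1466 CPM in the male libraries, with -0.17 ± 0.21 (SE, adjusted p = 0.832), and Rpl11 at 645, 874 and 825 CPM in the female and 623, 643 and 868 CPM in the male libraries, with -0.13 ± 0.18 (SE, adjusted p = 0.845). Rps14, whose loss underlies the anaemia of a chromosome deletion syndrome, was at 1353, 1982 and 1957 CPM in the female and 1238, 1304 and 2191 CPM in the male libraries, with -0.16 ± 0.24 (SE, adjusted p = 0.869), and showed the widest gap between male replicate 3 and the other male libraries of any member over 300 CPM, 0.79 on the log2 scale. Mdm2 itself was at 66.3, 61.7 and 55.5 CPM in female replicates 1 to 3 and 77.0, 85.6 and 63.2 CPM in male replicates 1 to 3, with 0.30 ± 0.14 (SE, adjusted p = 0.512).

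Many members share their sequence with processed pseudogenes, so their counts are uncertain in part. A median of 93.5% of the 31-base stretches of a member's coding sequence occurred elsewhere in GRCm39 as well, and in 28 members all of them did. The members with the fewest such stretches included Rpl3l at 0%, Rpl8 at 11.2% and Rps3 at 19.0% (its mean level was 1939.9 CPM). In Rpl8 and Rps3 male replicate 3 lay above the other male libraries, as in 81 of the 84 members. The count table held rows for 202 genes named as pseudogenes of 58 members. Of all counts, these rows took 1.79%, 2.10% and 2.08% in female replicates 1 to 3 and 1.65%, 1.61% and 2.10% in male replicates 1 to 3. They are not members and entered the values above only through the library totals and the genes tested.

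Stretches of 3 members and of the pseudogene row with the most counts among their copies show how near these copies are. Bases are counted from the A of the start codon, each stretch is 60 bases long and written 5′ to 3′ in the sense of the member from GRCm39, and capitals mark the bases that differ between member and copy.
Rpsa, bases 160 to 219: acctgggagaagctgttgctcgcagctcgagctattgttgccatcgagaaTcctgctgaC
Rpsa-ps10, the same bases: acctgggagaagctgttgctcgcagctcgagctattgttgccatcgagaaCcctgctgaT
Rpl19, bases 132 to 191: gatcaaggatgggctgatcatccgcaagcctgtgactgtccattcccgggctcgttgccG
Rpl19-ps11, the same bases: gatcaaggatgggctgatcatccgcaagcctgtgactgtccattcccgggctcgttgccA
Rps6, bases 1 to 60: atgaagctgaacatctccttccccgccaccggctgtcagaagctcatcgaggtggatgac

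Rpsa-ps10 (chr3:149778295-149779179) differed from the 885 coding bases of Rpsa at 6 bases, Rpl19-ps11 (chr8:19542952-19543542) from the 588 of Rpl19 at 1, and Rps6-ps4 (chr2:75021417-75022166) matched all 747 of Rps6, so its stretch is the same as that of Rps6. Rps6-ps4 nevertheless carried 284368 counts over the 6 libraries. Its counts as a ratio to those of Rps6 were between 0.647 and 0.662 in every library, a coefficient of variation of 0.792%. The ratio was between 0.515 and 0.551 for Rpl19-ps11 and between 0.328 and 0.335 for Rpsa-ps10. 73 rows had at least 10% of the member's counts, and their coefficient of variation over the 6 libraries had a median of 3.03% and a maximum of 8.10%. In the rows below 10% that had over 1000 counts the median was 10.6%, and of all 154 rows with over 1000 counts 131 were under 15%. In the 73 rows with the most counts relative to the member the ratio thus varied little between the libraries.

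**Figure D5:**
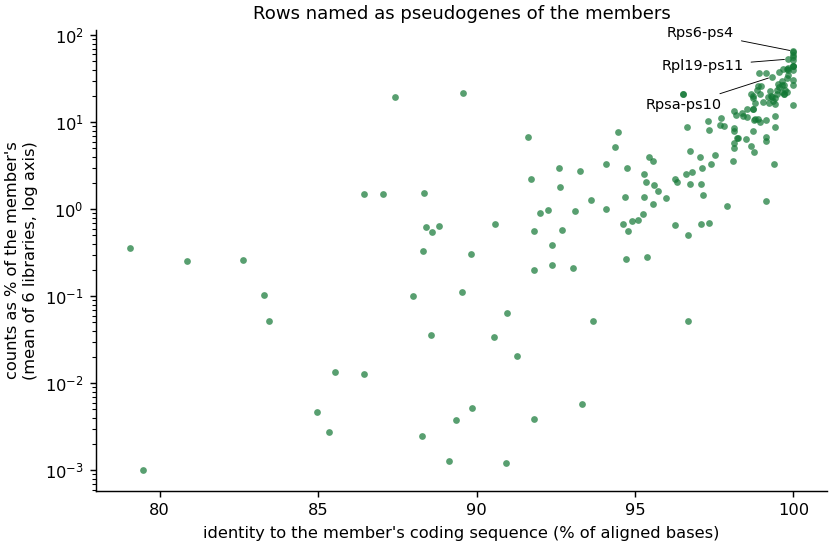
Each of 180 points is a row named as a pseudogene of a member, aligned to at least 80% of the member's coding sequence, with the identity of the aligned bases on the horizontal axis and its counts as a percent of the member's, averaged over 6 libraries, on a log axis. Rows with an identity of 99% or more sit between 1.24% and 65.5%.

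Pseudogene rows aligned to at least 80% of the member's coding sequence were grouped by identity. Their counts were higher the nearer their sequence was to the member. 50 rows with at least 99% identity had a median of 26.03% of the member's counts, 32 rows from 98% to 99% had 11.7%, 38 rows from 95% to 98% had 2.14%, and 33 rows from 90% to 95% had 0.682%. 32 rows under 90% had 0.0756%. The 11 rows whose sequence matched the whole coding sequence of a member exactly belonged to 10 members. Copies together reached 143% of the member's own counts for Rpl10, 116% for Rpl17, 114% for Rpl19 and 106% for Rpl15, and exceeded 50% for 17 members. When these counts were added to the members, the log2 fold changes of males over females moved by a median of 0.0027 and by at most 0.041, the median over the members was -0.14, and none passed the adjusted threshold. The levels per kb above therefore depend on where such reads were counted more than the comparison of the sexes does. How reads with several matches were assigned to genes was not stated for this table.

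Genes that work with the members were read from lists of their own. The 23 translation factors and partners with TOP messages had 22 negative log2 fold changes and 1 positive, where 50.2% of all genes were lower, with a median of -0.15. None had an unadjusted p under 0.05, against 9.79% of all genes, and 1 was lower in every male library, against 7.29% of all genes. That gene was Eif4b, an initiation factor, with a log2 fold change of -0.13 ± 0.12 (SE, adjusted p = 0.761). Eef1a1, which delivers aminoacyl-tRNA to the ribosome, was at 6300.0, 8439 and 8085 CPM in female replicates 1 to 3 and 6141, 6078 and 7316 CPM in male replicates 1 to 3, with -0.22 ± 0.18 (SE, adjusted p = 0.740). Rack1, a scaffold on the small subunit, was at 1124, 1542 and 1497 CPM in female replicates 1 to 3 and 1073, 1031 and 1420.2 CPM in male replicates 1 to 3, with -0.24 ± 0.18 (SE, adjusted p = 0.718). Fau encodes a ribosomal protein fused to a ubiquitin-like protein, and its symbol lies outside the rule. Fau was at 841, 1206 and 1077 CPM in female replicates 1 to 3 and 836, 816 and 1155 CPM in male replicates 1 to 3, with -0.15 ± 0.19 (SE, adjusted p = 0.831). The list took 1.99% to 2.27% of the counts in the female and 1.79% to 2.03% in the male libraries, with male replicate 3 again the highest male library.

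Of 43 tested genes of ribosome biogenesis, which make, modify and assemble ribosomal RNA, 40 had negative and 3 positive log2 fold changes, with a median of -0.15. 13 were lower in every male than in every female library, which held for 7.29% of all genes tested, 4 had an unadjusted p under 0.05, against 9.79% of all genes, and none passed the adjusted threshold. The list took 0.214% to 0.219% of the counts in the female and 0.184% to 0.204% in the male libraries, so its sum did not overlap between the sexes, and male replicate 3 was not apart. Rrn3, an initiation factor of RNA polymerase I, was at 33.1, 33.4 and 34.2 CPM in female replicates 1 to 3 and 28.1, 24.6 and 24.6 CPM in male replicates 1 to 3, with -0.38 ± 0.12 (SE, adjusted p = 0.308). The nucleolar protein nucleolin, Ncl, was at 397, 493 and 453 CPM in female replicates 1 to 3 and 379, 337 and 373 CPM in male replicates 1 to 3, with -0.30 ± 0.13 (SE, adjusted p = 0.495). Both had every male library below every female library.

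Of 20 tested chaperones and regulators of ribosomal proteins, 14 had negative and 6 positive log2 fold changes, with a median of -0.11, 3 were lower in every male library, against 7.29% of all genes, and 2 had an unadjusted p under 0.05, against 9.79% of all genes. The latter share is close to that of all genes. The 2 genes were Heatr3, an importer of Rpl5, with -0.40 ± 0.15 (SE, adjusted p = 0.430), and Myc, which drives ribosomal genes, with -0.30 ± 0.13 (SE, adjusted p = 0.486). Larp1, which binds TOP messages, had -0.21 ± 0.11 (SE, adjusted p = 0.569). Of 76 tested mitochondrial ribosomal protein genes, whose products form the ribosome of the mitochondrion, 40 were negative and 36 positive, with a median of -0.018. Of these, 1 had an unadjusted p under 0.05, against 9.79% of all genes, and none passed the adjusted threshold. Without overlap between the sexes, 6 were lower and 2 higher in males, where 14.5% of all genes did not overlap. They took 0.224% to 0.227% of the counts in the female and 0.215% to 0.241% in the male libraries, and male replicate 3 was again the highest. Without male replicate 3 the median was -0.12 for this list and -0.17 for the chaperones and regulators. It was then -0.27 for the TOP list, -0.16 for ribosome biogenesis and -0.30 for the Diamond-Blackfan members.

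Markers of the cell types these libraries could hold differed in direction from list to list. Of the neutrophil markers, 18 of 20 had positive log2 fold changes with a median of 0.51, and male replicate 3 lay between the other male libraries in their summed share, at 3.94%. Of the erythroid markers 9 of 14 were positive with a median of 0.058. Negative values were found for all 12 macrophage markers (median -0.42), 23 of 24 endothelial markers (median -0.87) and 12 of 14 stromal markers (median -0.35). Of the B cell markers 5 of 13 were negative (median 0.072), of the T and NK cell markers 4 of 10 (median 0.11), and of the cycling cell markers 3 of 12 (median 0.069). An unadjusted p under 0.05, which 9.79% of all genes had, was found for 14 of 20 neutrophil, 6 of 14 erythroid, 12 of 12 macrophage, 16 of 24 endothelial and 4 of 14 stromal markers, and for 1 marker each of the B cell, T and NK cell and cycling cell lists. Of the neutrophil markers 15 were higher in every male than in every female library, 10 of the macrophage markers and 6 of the endothelial markers were lower, and 4 of the erythroid markers and 1 endothelial marker were higher, where 14.5% of all genes did not overlap. In the B cell and cycling cell lists 1 marker each was higher in this way, and in the T and NK cell and stromal lists 1 each was lower. No marker of these lists was at 0 in all libraries, and none passed the adjusted threshold of edgeR. Without male replicate 3, 5 neutrophil, 2 macrophage and 1 endothelial markers passed it, as did 0.482% of all genes. The medians were then 0.57 for neutrophil, 0.23 for erythroid, 0.12 for B cell, 0.043 for T and NK cell and 0.15 for cycling cell markers. They were -0.55 for macrophage, -1.24 for endothelial and -0.47 for stromal markers. The part of the mix of cells in the members' levels was not tested.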

How the data were processed

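RNA-seq libraries of BECs from 3 female and 3 male mice were compared, grouped by their titles, and every column of the table was matched to a sample. The deposited values are raw gene counts. The submitters' processing notes name TopHat2 2.0.11, featureCounts and build mm9 (NCBIM37), while the study's methods name STAR, featureCounts and GRCm39, so the aligner and build of this table are uncertain, and gene names, positions and lengths were taken from GENCODE release 39 of mouse on GRCm39 by gene identifier. 31073 of 37991 identifiers matched. Counts were tested with edgeR 4.0.16 in R 4.3.3: genes were filtered by filterByExpr, libraries scaled by TMM, and the quasi-likelihood test was fitted with sex as the factor and robust dispersions. P-values were adjusted by Benjamini-Hochberg over all genes tested, with a threshold of 0.05. DESeq2 1.42.0 was an alternative, as were other scalings, filters, gene sets, a replicate block and leaving out each library. Summed shares were compared by exact permutation over libraries. The edgeR test, but none of the other tests, was run on simulated counts with known changes. No library was a duplicate of another (smallest chi-square per degree of freedom between any pair of libraries, 33.6). Named genes were members past the threshold, the 5 largest changes in each direction at a mean of at least 5 CPM, the 5 smallest p, the 5 highest and 5 lowest levels per kb, the stalk genes and Rpsa, X-linked members, paralogue pairs and Rps6, Rpl5, Rpl11, Rps19 and Rps14. Some genes that this rule takes in are not reported here. Members and lists were chosen with earlier results of these data known. Depth, of 47678806 counts a library or more, gives a floor of at most 0.0639 CPM for 3 counts. Levels over the coding length, the check on transcript length and the settings so named in the closing section were chosen after seeing the data.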

Additional observations from a re-analysis of the deposited data

Results flagged for a closer look

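Counts on rows outside the comparison stood out. The 202 rows named as pseudogenes of the members held a mean of 1.89% of all counts over the 6 libraries, from 1.61% to 2.10%, although they are no part of the members. Whether a library lies far from the others was not tested, since groups of 3 libraries would give such a test little power.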

How the results depend on the processing

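No member and no gene of the related lists passed the adjusted threshold under any setting run: size factors of DESeq2, library totals as the only scaling, all genes with no count minimum, a minimum of 10 counts in each of the libraries, DESeq2's Wald test, protein-coding genes alone, genes over 1% of a library left out, the replicate block, and each library left out. The median over the members was negative under each of them, from -0.32 without male replicate 3 to -0.040 without male replicate 1, and -0.14 with the replicate block. The number of members without overlap between the sexes was 1 with total counts alone (2746 of 19480 genes), 1 with pseudogene counts added (2827 of 19302), 15 when scaled to the members' own counts (1643 of 19480), and 0 to 52 without each library in turn, the 52 without male replicate 3 (6368 of 19925). The share of counts stayed lower in males throughout, from -1.38 to -0.421 percentage points without each library. The subunit ratio, males minus females, turned to -0.027 with equal weight per member and to -0.0018 without the 5 most abundant members of each subunit, and ranged from -0.0087 to 0.026 without each library, the negative value without male replicate 3. Without each library in turn, the log2 fold change ranged from -0.18 to 0.019 for Rpl10, from -0.33 to 0.013 for Rpl22, from -0.077 to 0.32 for Rpl22l1, from -0.22 to 0.077 for Rpl39, from -0.21 to 0.54 for Rpl39l, from -0.21 to 0.16 for Rpl41, from -0.093 to 0.014 for Rpl7l1, from -0.30 to 0.057 for Rplp1, from -0.29 to 0.0065 for Rps19, from -0.14 to 0.24 for Rps27a and from -0.21 to 0.034 for Rps4x. The cause was not tested. The labels do not state that the replicate numbers pair the samples, and 3 pairs are too few to decide it. Deviations of same-numbered libraries correlated over genes by 0.19, 0.040 and 0.30, and 5 of the 6 libraries matched their own number best, male replicate 2 matching female replicate 1 (0.13). With the replicate block, 428 genes in place of 8 passed the threshold and 1 member had an unadjusted p under 0.05 (2751 of 19480 genes), the share differed by -0.752 percentage points (exact sign-flip test, p = 0.5; 3 pairs allow no p under 0.25), and the ratio by 0.0082. The number of all genes called also moved to 98 with no filter, 78 with protein-coding genes alone, 359 with DESeq2's Wald test, 14 with total counts alone and 96 without male replicate 3, and ranged from 5 to 96 without each library. Without male replicate 3 and with the replicate block, the median was -0.27, 665 genes were called, and 1 member had an unadjusted p under 0.05 (2471 of 19925 genes) in place of the 20 without the block (2826 of 19925). That setting, the addition of pseudogene counts, the scaling to the members' own counts and the coding length were chosen after seeing the data. Depth bears most on Rpl3l, the member with the fewest reads, with 38 to 78 counts a library.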
